A study of Cucumis melo with 12 samples.

Results

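A peroxidase gene (MELO3C002457) and a respiratory burst oxidase gene (RBOH, MELO3C020689) of melon were followed across seeds and radicles treated with *Bacillus velezensis* FZB42, a plant-associated bacterium. They are 2 of the 3256 genes and loci found on the 6 deposited lists, and were taken by identifier, with names from the study's supplementary table of selected genes. Both belong to enzyme families that make or use reactive oxygen species, a grouping made here and not in that table. The study chose the table's genes on these same samples, so their presence on a list is not independent evidence of a response.

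Melon seeds (*Cucumis melo* var. Rochet Panal) were surface sterilized and immersed for 90 min in distilled water (mock) or in washed FZB42 cells at a low or a high dose, with log10 CFU per ml of 7 and 8. RNA was sequenced from the seeds themselves and from radicles that had emerged from such seeds in darkness, taken at 5 days. Each of the 6 groups (mock, low dose and high dose in each tissue) has 2 libraries, described as biological duplicates. The files hold 1 value per gene and group, so replicate error is not known, no test was run, and every difference given here is a description of the listed values. The labels name polyadenylated RNA, whereas the methods describe rRNA-depleted libraries. The tissues were not checked against marker genes, because the lists give no gene names.

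Respiratory burst oxidases are NADPH oxidases of the plasma membrane. They pass electrons to oxygen outside the cell, and the superoxide formed there is converted to hydrogen peroxide. Secreted plant peroxidases use that hydrogen peroxide to cross-link phenolics and proteins of the cell wall, which stiffens it, and can also release reactive oxygen themselves. In *Arabidopsis thaliana* roots both enzyme families act in growth: an RBOH is needed for root hair elongation, and peroxidase activity affects the balance between cell division and elongation. Whether MELO3C002457 belongs to the secreted class, and which RBOH isoform MELO3C020689 encodes, is not given in the sources used here.

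There were 3147 genes on the mock, 3106 on the high-dose and 291 on the low-dose list of radicles. The corresponding numbers in seeds were 153, 32 and 131. Both genes are on the mock and the high-dose radicle lists, and neither is on the low-dose radicle list. All 3106 genes of the high-dose radicle list are also on the mock radicle list. For a gene on the high-dose list, its presence on the mock list is therefore not a separate finding. Of the pair, the peroxidase alone is on the high-dose seed list and on the list labelled mock seeds, and neither gene is on the low-dose seed list. Absence from a list was treated as a missing value and never as 0. The values carry the name FPKM, but they were read as a signal of unstated scale that is not divided by gene length, since single low values recur in many genes. In mock radicles 37 genes share a value of 0.549 and 46 genes share 1.10. A rank within a list therefore orders genes by signal and not by transcripts per gene.

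**Figure D1:**
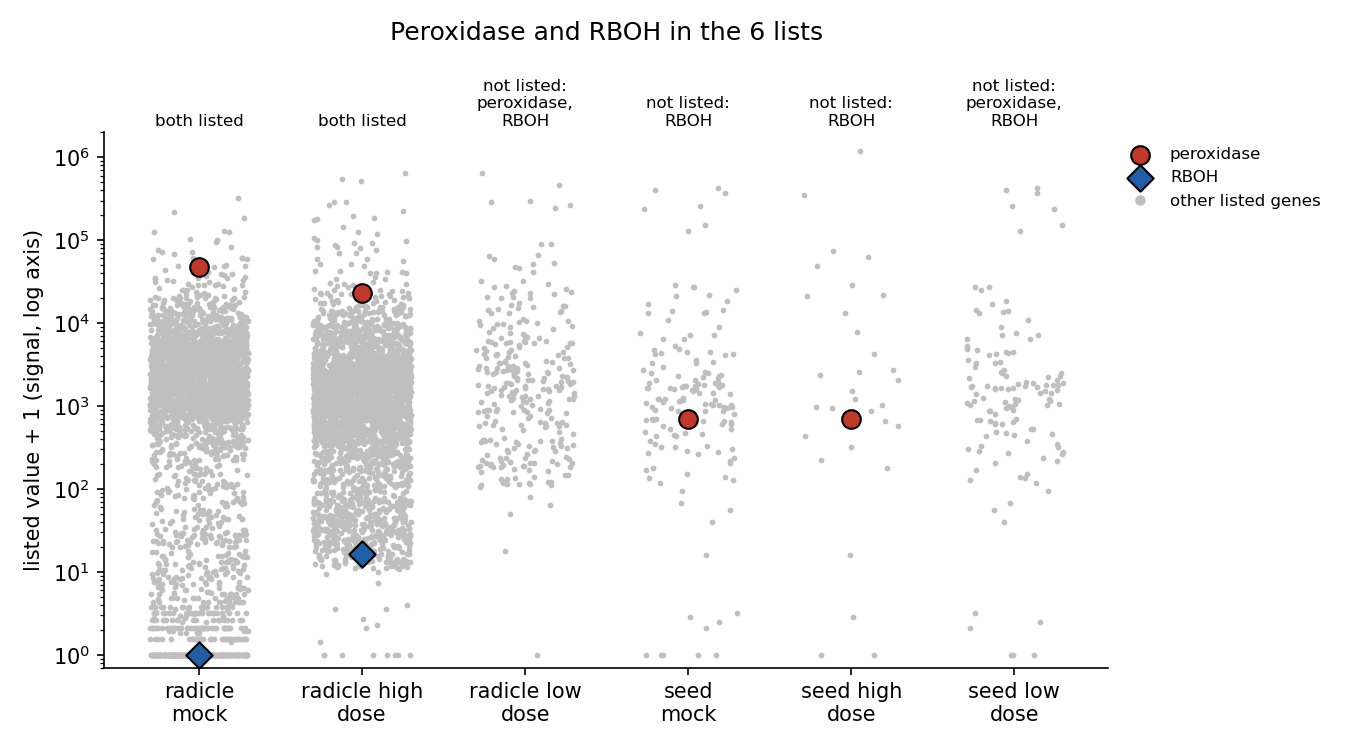
Listed value plus 1 (signal, log axis) of every gene on each of the 6 lists, with 1 point per gene, the peroxidase as a red circle and RBOH as a blue diamond. The peroxidase is near the top of both radicle lists and below the median of both seed lists (of which the mock list repeats treated values), whereas RBOH is listed at 0 in mock radicles and at 15.5 in high-dose radicles, and the lists without a value are named above each column.

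The peroxidase was among the genes with the strongest signal on the mock and high-dose radicle lists. These lists hold selected genes only, so its ranks are places among those genes and not among all genes of the radicle. Its value was 47778 in mock radicles, the 24th highest of 3147, and 23115 in high-dose radicles, the 58th highest of 3106. The high-dose value was 48.4% of mock, a log2((high + 1)/(mock + 1)) of -1.05. The gene took 0.400% of the summed signal of the mock list and 0.183% of that of the high-dose list. Its value was 28.1 times the list median in mock and 20.7 times at the high dose, so it stayed far above the typical listed gene. The spread between the 2 libraries of a group is not known, and the difference was not tested. When the median log2 ratio of -0.79 between both lists was removed (median ratio scaling), the peroxidase was at -0.26. That median was taken over selected genes, none of them near mock, so it need not be a difference in scale between the groups. Whether the fall remains under a scaling over all genes was not tested.

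As listed, falls past this threshold were common on the high-dose list. Of the 3106 genes, 773 had a log2 below -1, which is 24.9%, and the peroxidase was 1 of them. Another 972 genes, or 31.3%, were above 1. The split depended on scaling, with 1209 genes above 1 and 95 below -1 under median ratio scaling, and 650 and 261 under quantile normalization. Both scalings were computed over the listed genes only. In all, 1897 genes were below mock, with a median log2 of -0.94 and quartiles of -1.17 and -0.79. The peroxidase lies between that median and the lower quartile, and 678 of these genes (35.7%) fell further. Under quantile normalization it was at 35.4% of mock, a log2 of -1.50, and 138 genes fell further, so its place among the lowered genes depended on the scaling. The least lowered gene on the list was at -0.61, so that genes nearer to mock are absent from it.

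**Figure D2:**
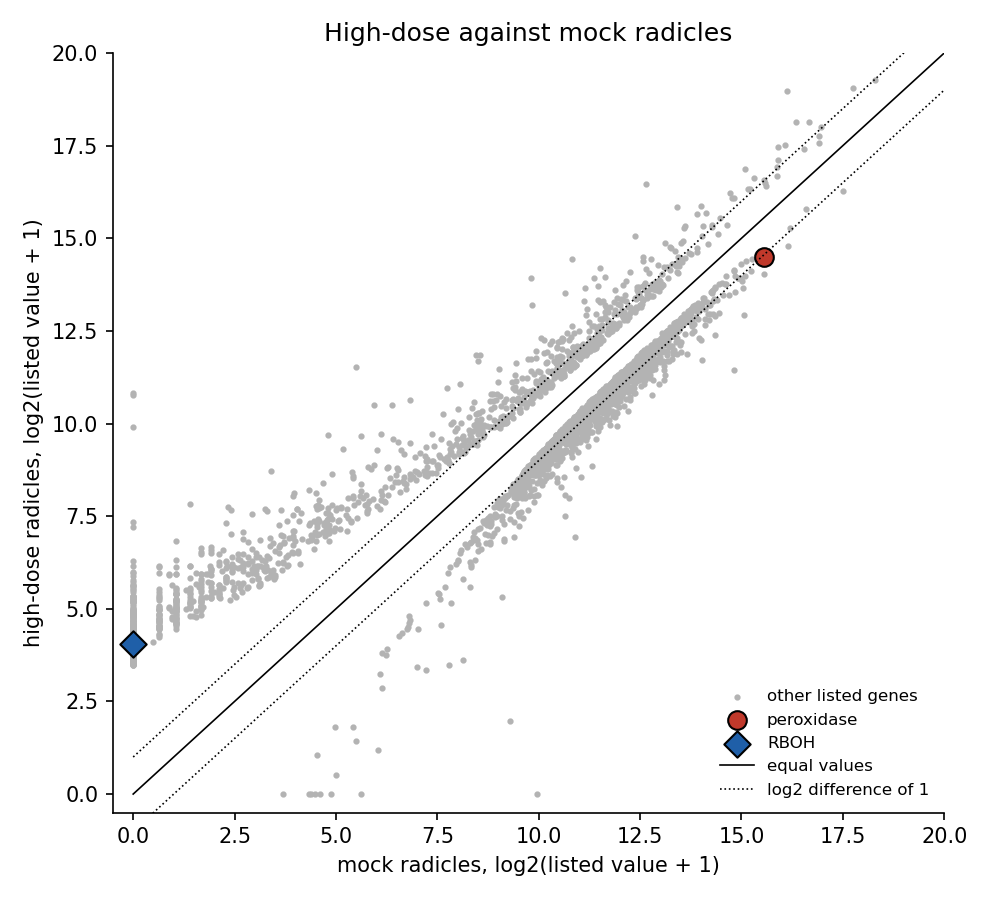
Listed values of the 3106 genes on both lists as log2(value + 1), mock radicles on the x axis and high-dose radicles on the y axis, with 1 point per gene, a solid line at equal values and dotted lines at a log2 difference of 1. No listed gene lies near the line of equal values, the peroxidase (red) is just beyond the lower dotted line at -1.05, and RBOH (blue) is in the column of genes listed at 0 in mock.

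Because the signal of the peroxidase was strong, a moderate log2 was a large difference in signal. As listed, mock exceeded the high dose by 24664 units, the 8th largest loss among the 3106 genes, and the largest was 105704. The size of this loss depended on scaling. Under median ratio scaling the peroxidase was at 39849 at the high dose and 47778 in mock. The rank of the loss was taken from the listed values only. Among the 23 genes on both lists with a mock value at or above that of the peroxidase, 6 were below mock at the high dose and 17 above. The 6 lower genes ranged from -1.51 to -0.81, with 3 of them lowered further than the peroxidase, and the 17 higher genes from 0.66 to 2.85. The lower genes are 26.1% of this top of the list, compared with 61.1% of all listed genes. That share depends on where the top begins, since it was 51.9% (27 lower and 25 higher) among the 52 genes with a mock value of at least 0.5 times that of the peroxidase.

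**Figure D3:**
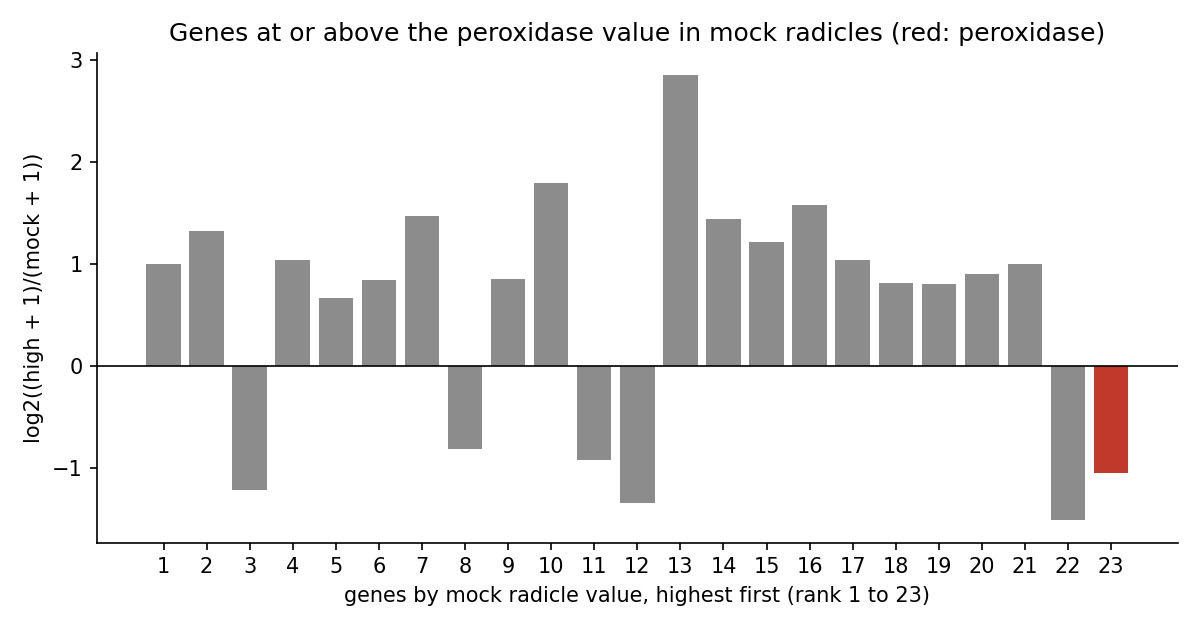
Log2((high + 1)/(mock + 1)) of the 23 radicle genes with a mock value at or above that of the peroxidase, ordered along the x axis by mock value with the highest first, with 1 bar per gene and no error bars because each group has 1 value. The peroxidase (red, last) is at -1.05, and 6 of the bars lie below 0.

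Genes with the pattern most like that of the peroxidase were sought by the distance of their mock and high-dose values on the log2 scale, over these 2 groups only. The nearest was MELO3C026613, with 43060 in mock and 24475 at the high dose, or 56.8% of mock. The next was MELO3C019474, with 39511 and 22390, or 56.7%. Neither of them is on the low-dose radicle list or on the mock seed list. The peroxidase is on the latter, but only with its high-dose seed value repeated there. The files do not pair these identifiers with names.

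RBOH had the opposite direction and a far weaker signal. It was listed at 0 in mock radicles, as were 205 genes of that list, and at 15.5 in high-dose radicles, where it shared rank 3009 of 3106 with 1 other gene. No fold is given against a value of 0. On the high-dose list 96 genes were below RBOH, of which 72 were above their mock value and 24 below it. RBOH is 1 of 201 genes of the high-dose list that were listed at 0 in mock. At the high dose these genes ranged from 10.1 to 1799, with a median of 18.7 and quartiles of 13.6 and 27.2. RBOH was at 82.9% of that median and 1.53 times the lowest of them, with 127 genes above it and 72 below. Its value lies between the lower quartile and the median of this group.

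**Figure D4:**
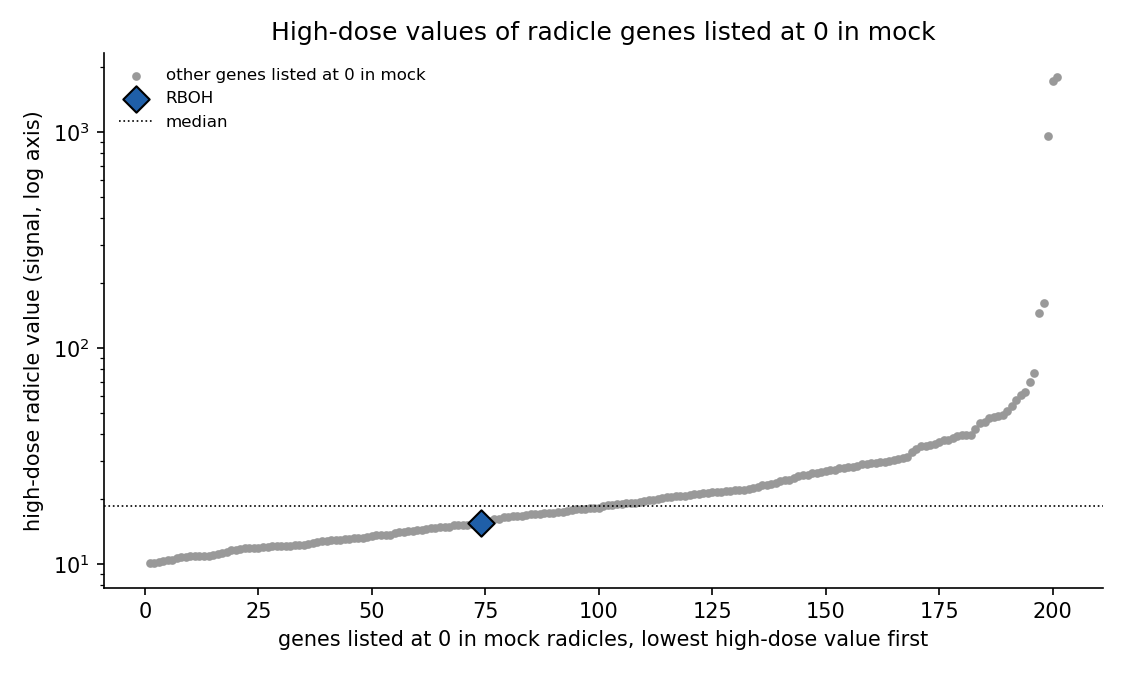
High-dose radicle values (signal, log axis) of the 201 genes listed at 0 in mock radicles, ordered along the x axis from the lowest, with 1 point per gene, RBOH as a blue diamond and the median of 18.7 as a dotted line. RBOH, at 15.5, lies in the flat lower stretch of the curve, below the median.

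The value of RBOH was shared. The gene MELO3C031207 was listed at exactly the same value, 15.5, and also at 0 in mock, and the next nearest, MELO3C025330, was at 15.3 and 0. The number of reads behind this value is not known here. Genes at this level differed sharply in their mock values. Of the 123 genes with a high-dose value of 10 to 20, 112 were listed at 0 in mock, 4 had a mock value of 0.414 to 0.549, and 7 had one of 69.2 to 279. None lay between 0.549 and 69.2, so a gene at the level of RBOH was on the list only if its mock value was at the floor or several times higher than at the high dose. Under median ratio scaling RBOH was at 26.7 at the high dose and 0 in mock. Under quantile normalization, with tied genes given their mean rank, it was at 7.74 at the high dose and 8.06 in mock, a reversal that arises from the mean rank assigned to all genes tied at 0, since with ties at their lowest rank mock was at 0.

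At the low dose neither gene has a value. Of the 24 genes of the mock radicle list at or above the peroxidase, 23 are on the high-dose list and 7 on the low-dose list. Genes with a mock signal of this strength are thus found on the low-dose list as well. The lists hold selected genes only, so the peroxidase was not selected for the low-dose list. The reason was not tested. RBOH was likewise not selected for the low-dose list, and the reason was not tested. On that list 1 gene was at 0. The lowest value above 0 on the low-dose list was 16.9, above the high-dose value of RBOH, and its 24 genes listed at 0 in mock started at 78.3. Of the 201 such genes of the high-dose list, 20 are also on the low-dose list. These had high-dose values from 20.9 to 1799, with a median of 46.7, each above RBOH. The 181 that are not on it ranged from 10.1 to 965, with a median of 17.4, so the values of both sets overlap. In general, 250 genes, or 8.05% of the high-dose list, are on the low-dose list. A level of either gene in low-dose radicles, zero included, cannot be derived.

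In seeds the peroxidase was listed at 694 at the high dose, the 22nd highest of 32 genes, or 0.508 times the median of that list. Unlike in radicles, it was in the lower part of its list. The mock seed list gives the same 694, the 102nd of 153, but it holds no value of its own. Within a relative tolerance of 1e-06, its values repeat the low-dose value for all 131 low-dose genes and the high-dose value for the other 22, the peroxidase included. The 10 genes on both dose lists carry the low-dose value and not the high-dose value there. The mock seed list was therefore not read as a measurement of mock seeds, 694 was taken as the high-dose value, and no response of this gene to the high dose in seeds can be read from the lists.

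The high-dose radicle value of the peroxidase was 33.3 times its high-dose seed value. The lists of both tissues may be scaled differently, and as a percent of the list total the high-dose ratio was 4.80, over totals of 3106 and 32 genes. Of the 15 genes on both high-dose lists, 2 were at 0 in seeds. Among the other 13, 7 were higher and 6 lower in radicles, with log2 ratios from -5.10 to 5.06 and a median of 0.25. The peroxidase had the highest of these ratios, 5.06, followed by 2.94. Among the 15 genes it ranked 11th in seeds and 4th in radicles. With 1 value per group, this difference between tissues was not tested. RBOH is on no seed list, and its level in seeds is not known here.

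**Figure D5:**
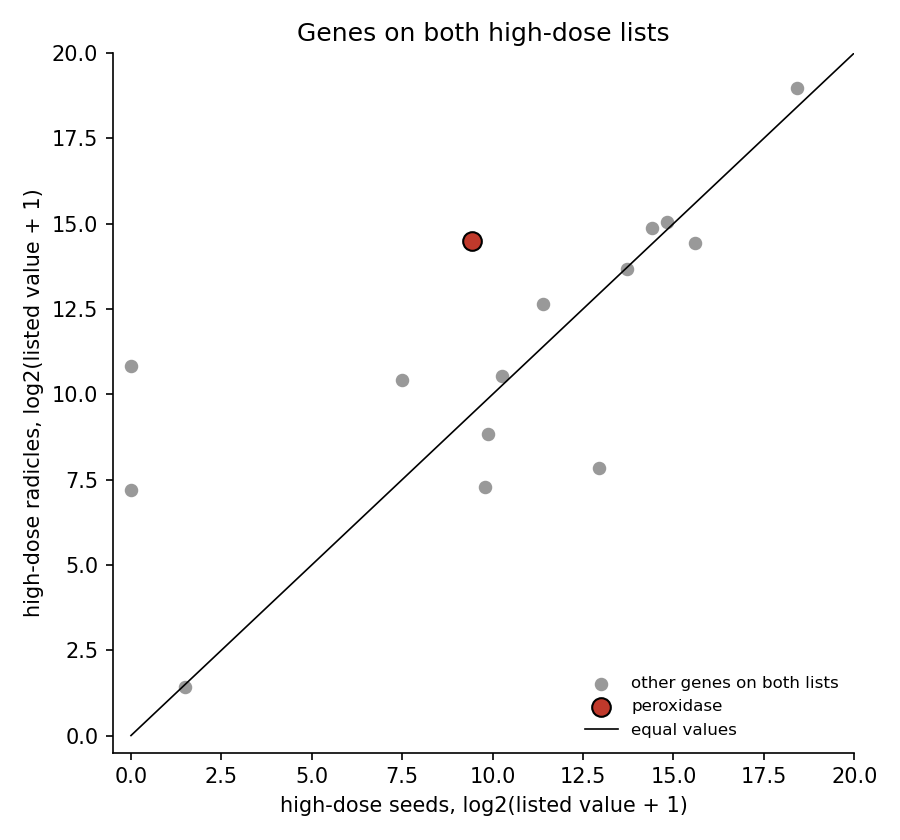
Listed values of the 15 genes on both high-dose lists as log2(value + 1), seeds on the x axis and radicles on the y axis, with 1 point per gene and a line at equal values. The peroxidase (red) is the point farthest above the line among genes with a seed value above 0, at a log2 ratio of 5.06.

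The oxylipin genes of the same supplementary table, whose enzymes also act on oxygen or peroxides, were set beside the pair by rank. The lipoxygenase LOX (MELO3C014630), which adds oxygen to fatty acids, was at rank 2277 of 3147 in mock radicles, 726 of 3106 at the high dose and 288 of 291 at the low dose, with values of 519.7, 2859 and 62.4. It was thus above mock at the high dose and below it at the low dose, whereas the peroxidase was below mock at the high dose and has no low-dose value. The lists differ in length, so these ranks are places within a list and not a movement. The allene oxide synthase AOS (MELO3C018413), which converts a fatty acid hydroperoxide on the way to jasmonic acid, is on no radicle list. In high-dose seeds it ranked 27th of 32, below the peroxidase at 22nd. Other peroxidases, oxidases and antioxidant enzymes could not be found on the lists, because 0 of the 3256 identifiers occur in the gene table at hand.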

How the data were processed

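The 12 RNA libraries form 6 groups of 2, taken from the submitters' titles. Alignment was to the melon cv. DHL92 v4 genome with pipelines of the sequencing provider, according to the methods, and Bowtie2 and SAMtools appear in the submitters' processing notes. The authors deposited 1 signal value per gene and group, under the name FPKM and for selected genes only. How libraries were scaled and combined is not given in the sources used here. Values under 1e-10 were taken as 0. The lists hold no read counts, so depth and precision are unknown.

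Ranks were taken within each list, with 1 for the highest value. For radicles, 1 was added to both values before the log2 ratio was taken. Genes had to reach a value of 1 in the mock or the high-dose list, a minimum that removed 0 genes. Called means past an absolute log2 of 1. Alternatives were a pseudocount of 0.1, no minimum, an absolute log2 of 2, scaling by the median ratio or list total, quantile normalization, leaving out XLOC loci (loci without a melon identifier) or genes at 0, and a tolerance of 0.001. Genes named besides the pair are the 2 nearest to each of them and 2 oxylipin genes. The members and lists were chosen with earlier results of these data known, and comparisons set by a member's own level were chosen after its value was seen. The counting was tested on simulated data. Calculations were made with numpy 2.4.6 and pandas 2.3.3 under Python 3.11.15, and plots with matplotlib 3.10.9.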

Additional observations from a re-analysis of the deposited data

How the results depend on the processing

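No paired analysis was possible because each list holds 1 value per gene for its group, and for the same reason the replicate block and leaving out each replicate were not run. Values were taken as kept within 1.5 times, and 35 of 44 alternative values were. Some of these could not have differed, so the count is not a measure of stability. The minimum removed 0 genes, and leaving out genes at 0 cannot change the rank of a gene above 0. Leaving out XLOC loci cannot change the log2 of the peroxidase or the listed value of RBOH. Median ratio scaling gave -0.26 for the peroxidase in high-dose radicles, 95 lower genes and 26.7 for RBOH. That scaling moves every gene by the same amount, so these changes follow from its construction. Like quantile normalization, it was computed over listed genes only, which lack genes near mock. Quantile normalization gave 261 lower genes and, for high-dose minus mock RBOH, -0.32 with genes tied at 0 given their mean rank and 7.74 with ties at their lowest rank. An absolute log2 of 2 left 69 lower genes. As a percent of the list total the log2 ratio of the peroxidase between high-dose radicles and seeds was 2.26 against 5.06 as listed. The share of lower genes among those at or above the peroxidase in mock was 51.9% from 0.5 times its value, against 26.1%. The scalings of RBOH, leaving out genes at 0 and the lower minimum were chosen after the data were seen. Without read counts, what depth limits was not computed.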
